A study of Saccharomyces cerevisiae with 12 samples.

Results

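The comparison described here set budding yeast that lacked the only intron of YSF3 (ysf3Δi) against the wild type after 48 h of culture, with every gene in the table of read counts considered. It used 4 of the 12 libraries of the series, taken by their labels: ysf3Δi strains 1 and 2 and wild-type strains 1 and 2, each at 48 h. All were of the BY background and grew in synthetic minimal medium with 2% glucose, histidine, leucine, uracil and lysine. The labels call the 48 h cultures stationary phase. The other 8 libraries were the same strains in log phase and 2 strains without the intron of MMS2 in both phases. They entered the fit for its estimate of spread and served 2 further comparisons. RNA was ribodepleted and fragmented to about 200 nt before libraries were made. Each genotype had 2 strains and each strain gave 1 library at 48 h. The p-values rest on the spread between 2 strains per group, pooled over all 6 groups. The main fit treated the log phase and 48 h libraries of a strain as independent. Growth in separate cultures is not stated beyond the strain numbers.

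Nuclear introns are removed by the spliceosome, which assembles from small nuclear RNAs and proteins on each transcript. SF3b, a part of the U2 particle, holds the U2 RNA at the branch point of the intron, and Ysf3 is its smallest subunit. Few yeast genes carry an intron, but ribosomal protein genes often do, so a large share of all splicing in growing cells serves the ribosome. When glucose runs out, yeast lowers ribosome production and turns to respiration, and it later enters a resting state.

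YSF3 (YNL138W-A) lies on the plus strand of chromosome XIV at 366033 to 366412 in sacCer3. Exon 1 has 3 nt, the start codon, and exon 2 has 255 nt. The 122 nt between them, chrXIV:366036-366157, are the segment named by the genotype and are shown from the RefSeq R64 genome, with capitals on the first 6 bases, on the branch motif TACTAAC and on the last 3 bases.
YSF3 intron: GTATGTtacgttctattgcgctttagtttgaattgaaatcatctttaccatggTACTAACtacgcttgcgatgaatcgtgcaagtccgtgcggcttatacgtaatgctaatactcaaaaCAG
GTATGT opens 73.0% of the 281 annotated introns of nuclear protein-coding genes, TACTAAC is found in 82.6% and AG closes 98.9% (sense strand only). In YSF3 the branch motif starts at base 54. Of the 281 introns 45.9% are shorter than this one.

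The libraries differed in depth, in ribosomal RNA and in genes of mating type. Totals were 4871513 and 14999029 counts in wild-type strains 1 and 2 and 9075505 and 16581925 in ysf3Δi strains 1 and 2. Ribosomal RNA, which depletion removes, took 0.851% of counts in wild-type strain 1, 0.2015% in strain 2 and 0.289 and 0.194% in ysf3Δi. Wild-type strain 1 also had the lowest total and stood apart in genes of mating type, which the labels do not give. The summed level of the 7 a-cell genes was 80.5 CPM (read counts scaled to library size) there, 264 in wild-type strain 2 and 249 and 268 in ysf3Δi. The summed level of the 9 alpha-cell genes was 125 CPM in wild-type strain 1, 45.4 in strain 2 and 35.3 and 38.7 in ysf3Δi. In log phase the same lists were at 34.6 and 2538 CPM in wild-type strain 1, and at 1700 and 39.4 in strain 2. In ysf3Δi they were at 2039 and 24.4 CPM in strain 1 and at 1483 and 40.9 in strain 2. By these lists wild-type strain 1 had the pattern of alpha cells. Wild-type strain 2 and the ysf3Δi strains had that of a cells. STE2, the receptor for alpha-factor on a cells, had 38 counts in wild-type strain 1 and 861 in strain 2, beside 462 and 995 in ysf3Δi. STE3, the receptor for a-factor on alpha cells, had 260 and 100 counts in the wild type and 39 and 96 in ysf3Δi. The genes of the pheromone precursors MFA1 and MFA2 had no count in any of the 4 libraries. None of the 5 a-cell and 4 alpha-cell genes tested passed at 48 h (edgeR; 0 at an unadjusted p under 0.05, and 0 by DESeq2). Because the 2 wild-type strains differed in these genes, the test cannot separate genotype from strain, and no conclusion is drawn from it. The same mixed wild-type group was used for every other gene tested. In log phase all 4 alpha-cell genes were called lower by edgeR (median -5.73) and 0 of the a-cell genes were called (median 1.08). At 48 h, among the a-cell genes tested, BAR1 was at 1.28 on the log2 scale, AGA2 at 1.07, ASG7 at 0.63 and STE6 at 0.35. Among the alpha-cell genes MF(ALPHA)1 was at -2.53, AFB1 at -2.51 and SAG1 at -0.59. MF(ALPHA)2 had at most 5 counts in a library and was not tested. The part of these differences in the results was not tested, and results are also given without wild-type strain 1.

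The level of YSF3 itself at 48 h did not pass the test. Counts were 13 and 40 in the wild type and 22 and 37 in ysf3Δi, or 2.46 and 2.52 CPM against 2.47 and 2.22 CPM. The groups overlapped, and the log2 fold change was -0.10 ± 0.33 (adjusted p of 0.897). Here and below the value after ± is an approximate error: the log2 value over the root of its F statistic. In log phase the same strains were at 0.77 (adjusted p of 0.0856). The table counts whole genes, so it holds no check of the missing intron.

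The other SF3b subunits did not pass either. HSH155, which cradles the branch helix, was at 66.9 and 57.4 CPM in the wild type and at 54.0 and 52.4 in ysf3Δi, a log2 fold change of -0.22 ± 0.15. CUS1 was at -0.24, RSE1 at -0.23, RDS3 at -0.08 and HSH49 at 0.15. Over the 6 subunits the median was -0.16, with 0 called by edgeR, 0 at an unadjusted p under 0.05 and 0 by DESeq2. The 10 SF3a and U2 proteins had a median of -0.24, with 0 called by either tool and 2 lower at an unadjusted p under 0.05. The 76 other spliceosome proteins had a median of -0.17, and both ysf3Δi strains lay below the wild type in 43 of them, beside 31.1% of all genes. At an unadjusted p under 0.05, 11 were lower and 3 higher, beside 6.59% and 13.8% of all genes. The 1 that passed (1.32%, beside 2.49% of all genes that rose) was NAM8, a U1 subunit that helps at weak splice sites, which rose by 0.85 ± 0.17. MMS2, which kept its intron here, was at -0.25 ± 0.17 (adjusted p of 0.426).

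Across all genes, 168 of 6068 passed at an adjusted p under 0.05, which is 2.77% of those tested. Most calls were in one direction: 151 genes (2.49%) rose in ysf3Δi and 17 (0.28%) fell, so that 89.9% of calls were higher. The smallest adjusted p was 0.0323, just inside the threshold, and 1240 genes had an unadjusted p under 0.05, 840 higher (13.8%) and 400 lower (6.59%). DESeq2 called 452 (7.46%). Of the 151 genes that rose, 119 encode proteins, 24 are small nucleolar RNAs, 4 are other stable RNAs and 4 were not matched to the annotation. The genes that rose had a median of 1.30 and a range of 0.61 to 3.71 on the log2 scale, and those that fell had a median of -0.81. Scaling by library totals moved the median of all genes from 0.01 to -0.10 and gave 95 higher and 35 lower, or 73.1% higher.

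**Figure D1:**
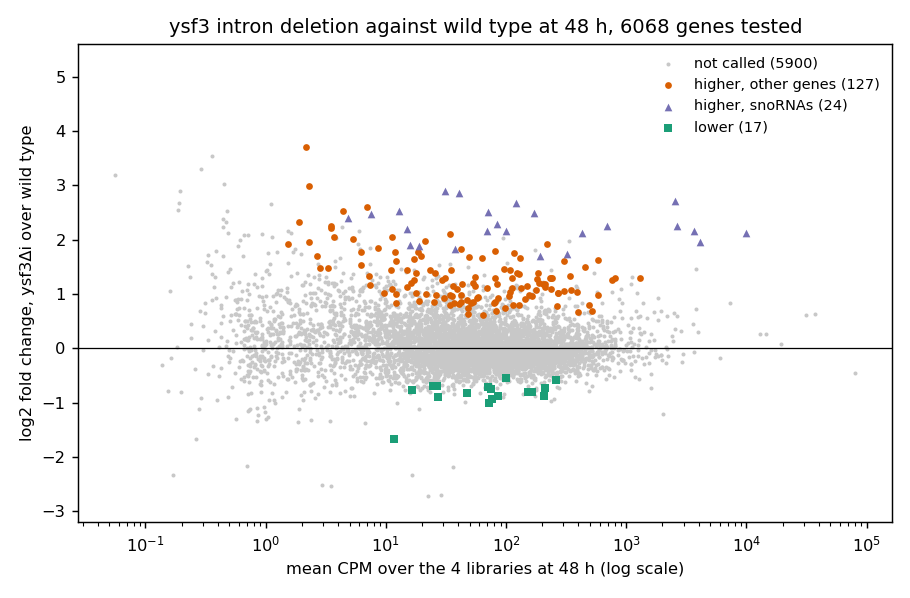
Log2 fold change (ysf3Δi over wild type) of the 6068 genes tested against their mean CPM over the 4 libraries at 48 h, on a log axis. Triangles are the 24 small nucleolar RNAs that rose, circles the 127 other genes that rose, squares the 17 that fell, and small grey points the 5900 not called.

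Wild-type strain 1 lay farther from ysf3Δi than wild-type strain 2 in nearly all called genes. In 149 of the 151 genes that rose its CPM was below that of wild-type strain 2, and in all 17 that fell it was above, while it was below in 3399 of all 6068 genes. Without that library edgeR called 0 genes (489 at an unadjusted p under 0.05), and DESeq2 called 80 (1.29%), of which 79 were higher. Of the 168 genes 79 were among those 80. With the library left out, the median was 1.08 in the 151 and -0.64 in the 17. Their signs are no check, because in every one of these genes the 2 ysf3Δi libraries lay outside the range of the wild type, beside 32.5% of all tested genes with both above and 31.1% with both below. Without ysf3Δi strain 1, or without ysf3Δi strain 2, edgeR also called 0 genes. Without wild-type strain 2 it called 219. Fold changes given below without wild-type strain 1 are from edgeR, which called none of them, unless DESeq2 is named.

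**Figure D2:**
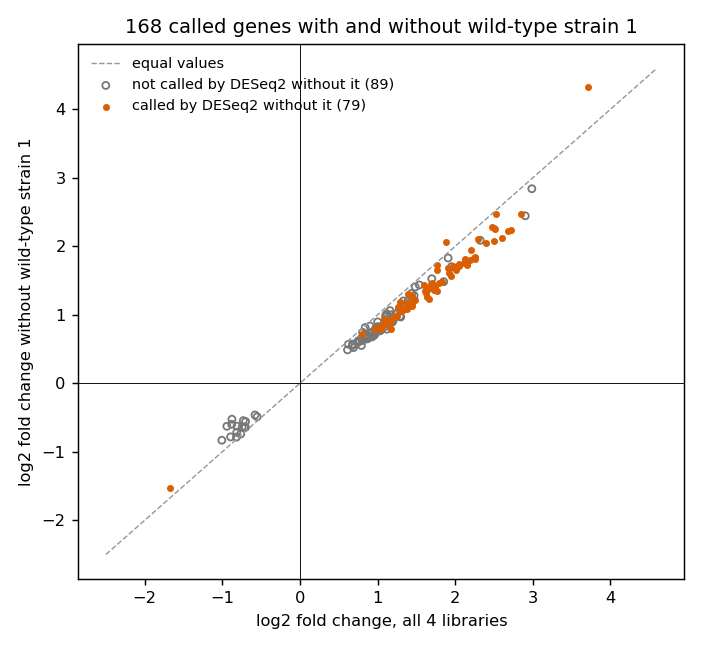
Log2 fold change of the 168 called genes without wild-type strain 1 (vertical axis) against the value from all 4 libraries (horizontal axis), with a dashed line where they are equal. Filled points are the 79 genes that DESeq2 called without that library. The values without the library are mostly nearer to 0; the signs were fixed by the separation of the genotypes in these genes.

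Small nucleolar RNAs had the highest medians of the gene lists. These RNAs guide the chemical modification of ribosomal RNA and, in a few cases, its cleavage. C/D box RNAs direct methylation of ribose and H/ACA RNAs direct the change of uridine to pseudouridine. Of 29 H/ACA RNAs tested 17 rose, 0 fell and the median was 1.95, beside 2.49% of all genes and a median of 0.01. Of 47 C/D box RNAs 13 were tested, and 7 rose, 0 fell and the median was 2.16. The 34 C/D box RNAs not tested had at most 5 counts over the 4 libraries, and a median length of 91.5 nt beside 164 nt in the 13 tested. DESeq2 without wild-type strain 1 called 17 of the H/ACA and 7 of the C/D box RNAs, with edgeR medians of 1.56 and 1.82 in that setting.

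One C/D box RNA and a pair of H/ACA RNAs that rose are shown from RefSeq R64, to let the boxes be seen beside the levels. Capitals mark TGATGA (box C) and CTGA (box D) in snR128, minus strand of chrX:139566-139691, and the ACA box in snR49, plus strand of chrXIV:716120-716284, and snR32, plus strand of chrVIII:381540-381727.
snR128: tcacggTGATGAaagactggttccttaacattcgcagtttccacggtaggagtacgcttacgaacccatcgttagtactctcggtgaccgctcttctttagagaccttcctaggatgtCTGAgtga
snR49: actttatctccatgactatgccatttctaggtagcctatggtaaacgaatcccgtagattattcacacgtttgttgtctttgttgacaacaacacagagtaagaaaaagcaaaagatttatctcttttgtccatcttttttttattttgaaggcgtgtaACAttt
snR32: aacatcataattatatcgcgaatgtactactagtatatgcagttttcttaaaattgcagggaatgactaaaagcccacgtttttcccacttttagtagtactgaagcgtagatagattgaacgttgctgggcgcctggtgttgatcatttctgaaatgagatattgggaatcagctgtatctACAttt
On the sense strand, TGATGA starts within the first 40 bases in 78.7% of the 47 C/D box RNAs and CTGA within the last 25 in 95.7%. ACA starts within the last 8 bases in 58.6% of the 29 H/ACA RNAs, whose annotated ends can run past the box.

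The C/D box RNA snR128 (U14), which is needed to cleave the precursor of 18S ribosomal RNA, was at 41.8 and 61.2 CPM in the wild type and at 339 and 248 CPM in ysf3Δi. Both ysf3Δi strains were above both wild-type strains. The log2 fold change was 2.50 ± 0.34 (5.64-fold, adjusted p of 0.0323), and 2.26 without wild-type strain 1. snR45 went from 3.59 and 3.96 CPM to 24.2 and 19.9, a rise of 2.52 ± 0.31, and here the 2 wild-type strains were close to each other. The abundant U3 RNA, which starts the processing of 18S ribosomal RNA, has 2 genes that both passed. snR17a had 14104 and 76162 counts in the wild type and 153558 and 254808 in ysf3Δi, a rise of 2.12 ± 0.36. snR17b rose by 2.25 ± 0.43 and snR4 by 2.25 ± 0.41. How reads that match both snR17a and snR17b were counted is not known here.

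Among the H/ACA RNAs, snR49 was the highest at 2.90 ± 0.66 (adjusted p of 0.0483). Its levels were 3.21 and 10.1 CPM in the wild type and 70.8 and 39.2 in ysf3Δi, so the strains within each group were uneven. snR5 was at 5.67 and 13.0 CPM against 76.9 and 67.4, a rise of 2.85 ± 0.53. The 2 ysf3Δi strains were close, and wild-type strain 1 was the lower of the wild-type pair. snR37 had 2138 and 14934 counts in the wild type and 39900 and 72921 in ysf3Δi, which is 404 and 940 CPM against 4486 and 4370. It rose by 2.72 ± 0.46 (6.58-fold), and by 2.24 without wild-type strain 1. snR32 rose by 2.68 ± 0.52, snR36 by 2.51 ± 0.40, snR44 by 2.29 ± 0.35, snR10 by 2.19 ± 0.44 and snR46 by 2.16 ± 0.47. snR10 and snR17a overlap another annotated gene on their strand. The 12 H/ACA RNAs that did not pass ran from -0.45 (snR8) to 2.13 (snR80), chosen here as the ends of the range.

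As a class, small nucleolar RNAs took 4.64 and 5.76% of all counts in wild-type strains 1 and 2 and 10.1 and 9.35% in ysf3Δi strains 1 and 2. The share was 5.20 ± 0.796% against 9.72 ± 0.524% (mean ± SD, n = 2), and the groups did not overlap. A single C/D box RNA held 1492927 counts over the 4 libraries, and the most abundant H/ACA RNA held 352683. The share of the class therefore weighs the abundant RNAs most. Of 14 genes for the core proteins that bind small nucleolar RNAs 0 passed by edgeR (2 higher at an unadjusted p under 0.05, and 1 by DESeq2), with a median of 0.04. NOP1, the methyltransferase of C/D box particles, was at 42.5 and 55.7 CPM in the wild type and 91.1 and 91.0 in ysf3Δi (0.88 ± 0.38, adjusted p of 0.222). NHP2, of H/ACA particles, was at -0.26 ± 0.16.

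**Figure D3:**
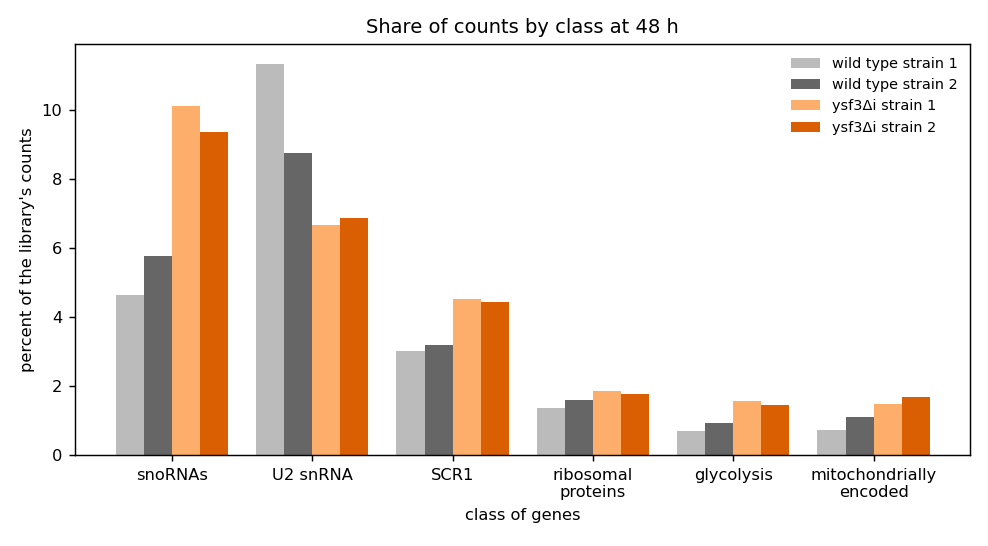
Percent of each library's counts taken by 6 classes of genes at 48 h, with 1 bar per library. Small nucleolar RNAs took 4.64 and 5.76% in the wild type and 10.1 and 9.35% in ysf3Δi, while the U2 RNA took 11.3 and 8.76% in the wild type and 6.67 and 6.86% in ysf3Δi.

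Other stable RNAs were mixed. The RNAs of RNase P (RPR1, which trims transfer RNA) and RNase MRP (NME1, which cuts ribosomal RNA precursors) rose by 1.65 ± 0.28 and 1.79 ± 0.36. RPR1 was at 49.3 and 77.2 CPM in the wild type and at 200 and 202 in ysf3Δi, and the groups did not overlap. The signal recognition particle RNA SCR1 was at 0.64 ± 0.29 (adjusted p of 0.243) and the telomerase RNA TLC1 at 0.56 ± 0.20 (adjusted p of 0.153), and neither passed. Of the spliceosomal RNAs 4 were tested. U4 (snR14) rose by 2.61 ± 0.57 from 3 and 45 counts to 103 and 217, and the long form of U5 (snR7-L) rose by 1.97 ± 0.38 from 33 and 164 counts to 278 and 607. The short form snR7-S lies within it and had no counts. The U2 RNA (LSR1), which SF3b binds, had 551939 and 1313551 counts in the wild type and 604931 and 1137705 in ysf3Δi. Its level was lower in both ysf3Δi strains, by -0.46 ± 0.27, and did not pass (adjusted p of 0.364). U1 (snR19) was at 0.27 ± 0.20. U6 (snR6) had 5 counts in 1 library and none in the other 3.

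Several small nucleolar RNAs are cut from introns, and for these the host gene could be set beside the RNA (chosen after their values were seen). snR44 had 126 and 516 counts in the wild type and 1376 and 2085 in ysf3Δi, while its host RPS22B was at 11.2 and 14.2 CPM against 13.6 and 14.1, with a log2 fold change of 0.10 ± 0.24 (adjusted p of 0.848). The difference between the pair was not tested. snR191 was at 0.52 (adjusted p of 0.293), and its host NOG2 at -0.22. snR18, with at most 10 counts in a library, was not called, and its host EFB1 was at -0.01. The hosts ASC1, RPL7A and IMD4 rose, by 1.44, 1.66 and 1.08, but snR24, snR39 and snR54 in their introns had no count in these libraries.

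Glycolytic enzymes were the coding list with the highest median, 1.04. Of 21 genes tested 10 rose (47.6%, beside 2.49% of all genes) and 0 fell. TDH3, the main glyceraldehyde-3-phosphate dehydrogenase, was at 218 and 355 CPM in the wild type and 880.0 and 885 CPM in ysf3Δi. Both ysf3Δi strains were above both wild-type strains, and wild-type strain 1 was the lowest of the 4. TDH3 rose by 1.62 ± 0.30 (3.08-fold), or 1.32 without wild-type strain 1. PGK1, phosphoglycerate kinase, was at 188 and 292 CPM against 690 and 656, a rise of 1.49 ± 0.24. ENO2, an enolase, rose by 1.61 ± 0.28 and TPI1, triose phosphate isomerase, by 1.75 ± 0.32. The other 6 rose by 0.80 to 1.93. Reads of TDH3 and TDH2 may have been split between near-identical copies. In the same cells 12 of 19 hexose transporters had both ysf3Δi strains above the wild type (32.5% of all genes). Of the 19, 2 passed, both higher (10.5%, beside 2.49% of all genes). HXT1, a transporter of low affinity used at high glucose, was at 3.78 and 7.42 CPM in the wild type and 19.3 and 13.9 in ysf3Δi, a rise of 1.45 ± 0.27. HXT6, of high affinity, was at 7.56 and 9.25 CPM against 29.6 and 28.3, a rise of 1.76 ± 0.30. Its near-identical copy HXT7 was at 1.33 ± 0.32 and fell short (adjusted p of 0.0529), and reads could have been split between them. HXT5, made when growth slows, was at 0.56 ± 0.18.

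Cytosolic ribosomal protein genes had a median above 0, but most did not pass. Of 135 tested 16 rose (11.9%, beside 2.49% of all genes) and 0 fell, with a median of 0.49. At an unadjusted p under 0.05, 68 were higher and 6 lower, beside 13.8% and 6.59% of all genes. Of the 89 with an intron 8 rose with a median of 0.44, and of the 46 tested without one 8 rose with a median of 0.57. The difference between these was not tested. The large and small subunits had medians of 0.44 and 0.51. RPL2B was at 50.9 and 84.1 CPM in the wild type and 189 and 166 in ysf3Δi, with no overlap, and rose by 1.38 ± 0.25. RPL1B rose by 1.82 ± 0.33, RPL1A by 1.60 ± 0.32, RPS2 by 1.45 ± 0.27 and RPL4A by 1.18 ± 0.20. RPL30, whose protein blocks splicing of its own transcript, had 24 and 176 counts in the wild type and 241 and 428 in ysf3Δi and rose by 1.64 ± 0.33. RPS29A rose by 2.01 ± 0.40, RPS19B by 1.21 ± 0.26 and RPS23B by 0.92 ± 0.20. RPL37A, the lowest of the list and chosen for that, was at 62.0 and 58.7 CPM against 36.2 and 24.7, a log2 fold change of -0.99 ± 0.27 (adjusted p of 0.0696). RPL1A, RPL1B, RPL2B and RPL4A have near-identical copies. DESeq2 called 49 of the list higher and 3 lower, and 10 higher without wild-type strain 1.

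Of 38 translation factors 4 rose (10.5%, beside 2.49% of all genes), with a median of 0.23: HYP2 (eIF5A) by 0.94 ± 0.22, TEF2 (elongation factor 1A) by 0.97 ± 0.22, and EFT1 and EFT2, 2 copies that encode the same elongation factor, by 0.96 ± 0.22 and 1.09 ± 0.24. How reads that match both EFT1 and EFT2 were counted is not known here. The ribosome-bound chaperones SSB1 and SSB2, which fold new chains, rose by 1.38 ± 0.22 and 1.05 ± 0.20, but are near-identical. ASC1, a ribosomal protein of the RACK1 family that takes part in signalling, was at 15.9 and 21.0 CPM in the wild type and 51.9 and 49.7 in ysf3Δi and rose by 1.44 ± 0.19. Of 137 ribosome biogenesis genes 0 passed by edgeR, and the median was -0.18. At an unadjusted p under 0.05, 3 were higher and 15 lower, beside 13.8% and 6.59% of all genes. DESeq2 called 1 higher and 1 lower. Both ysf3Δi strains lay below the wild type in 80 of the 137, beside 31.1% of all genes. TSR2, of the small subunit, was at -0.58 ± 0.16 and ARX1, of the large one, at 0.64 ± 0.18. The 26 subunits of RNA polymerases I and III had a median of -0.10 with 0 passing by either tool (2 higher and 2 lower at an unadjusted p under 0.05).

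**Figure D4:**
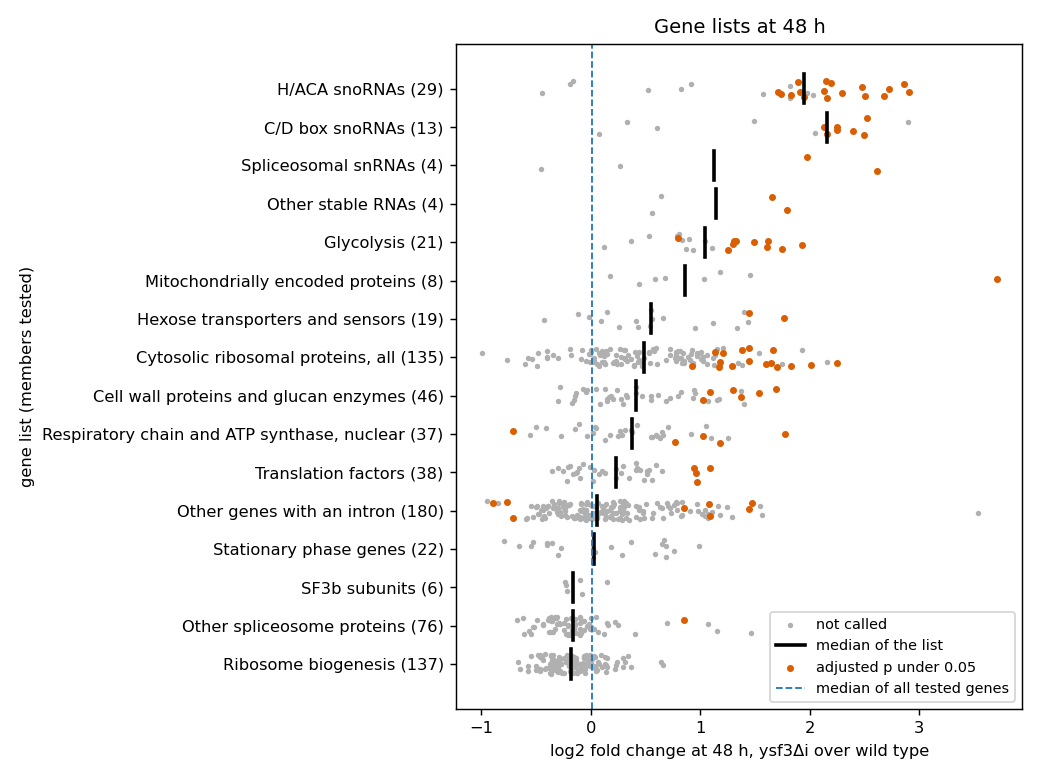
Log2 fold change at 48 h (ysf3Δi over wild type) of each tested member of 16 gene lists, with the number tested in brackets. Each point is a gene, coloured points had an adjusted p under 0.05, black bars are list medians and the dashed line is the median of all tested genes. The small nucleolar RNA lists are centred near 2 and ribosome biogenesis just below 0.

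Of 37 nuclear genes of the respiratory chain and ATP synthase 4 rose (10.8%, beside 2.49% of all genes). The median was 0.38, and 1 fell (2.70%, beside 0.28% of all genes). COR1 and QCR2, core proteins of complex III, rose by 1.02 ± 0.19 and 0.77 ± 0.16, RIP1, its iron-sulphur protein, by 1.18 ± 0.23, and ATP15, a small subunit of ATP synthase, by 1.77 ± 0.32. QCR10, another complex III subunit and a gene with an intron, was at 92.6 and 83.5 CPM in the wild type and 55.4 and 51.8 in ysf3Δi and fell by 0.71 ± 0.15. The groups did not overlap. Of the 18 genes of the tricarboxylic acid cycle 1 rose (5.56%, beside 2.49% of all genes). It was SDH4, a membrane anchor of succinate dehydrogenase, at 1.39 ± 0.28. Of 8 proteins encoded in mitochondrial DNA 1 rose (12.5%, beside 2.49% of all genes). It was ATP8, at 3 and 3 counts in the wild type and 32 and 72 in ysf3Δi (3.71 ± 0.58). With so few counts its size is uncertain. The abundant COX3 was at 1.45 ± 0.35 (adjusted p of 0.0541), COX1 at 1.18 ± 0.32 and OLI1 at 1.04 ± 0.30. The share of counts from these 8 genes was 0.736 and 1.11% in the wild type and 1.48 and 1.67% in ysf3Δi. Mitochondrial ribosomal proteins had a median of -0.10, with MRPL9 up by 0.98 ± 0.22 and IMG2 down by 0.70 ± 0.16 among 70. Each of these is 1.43% of the list, beside 2.49% of all genes higher and 0.28% lower.

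Cell wall genes gave 6 higher (13.0%, beside 2.49% of all genes) and 0 lower of 46, with a median of 0.41. GAS1, which links glucan chains, was at 39.5 and 54.2 CPM in the wild type and at a mean of 116 in ysf3Δi, with no overlap, and rose by 1.30 ± 0.26. PST1 rose by 1.37 ± 0.25, PIR3 by 1.02 ± 0.22 and SUN4 by 1.09 ± 0.22. At the plasma membrane, PMA1, the proton pump, was chosen after its values were seen. It was at 690 and 807 CPM in the wild type and 1905 and 1759 in ysf3Δi and rose by 1.29 ± 0.21. Without wild-type strain 1 DESeq2 put PMA1 at 1.18 (adjusted p of 8.72e-05), and edgeR did not call it (adjusted p of 0.402). The permeases TAT1 and TAT2, which import tyrosine and tryptophan, rose by 1.15 ± 0.23 and 0.61 ± 0.14. PHO84, the phosphate transporter, rose by 1.04 ± 0.23, but an antisense transcript overlaps it, as one does TAT1, and the strand setting of the counting is not known here. SUL2, a sulphate permease, rose by 0.68 ± 0.13 and THI7, a thiamine transporter, by 0.93 ± 0.22.

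Smaller groups each had 1 to 3 calls, and the share that rose ran from 1.59% of amino acid biosynthesis genes to 10.7% of sulphur genes and of chaperones, beside 2.49% of all genes. In sulphur metabolism SAM1 and CYS4 rose by 1.30 ± 0.27 and 1.19 ± 0.25. Among 28 genes of oxidative stress defence SOD1, the superoxide dismutase of the cytosol, rose by 1.11 ± 0.24 and TRX2, a thioredoxin, by 2.52 ± 0.47 from 4 and 25 counts to 78 and 106. In the same list TRX3, the mitochondrial thioredoxin, fell. Of 25 ergosterol genes ERG4 rose by 0.97 ± 0.17 and ERG28 by 2.05 ± 0.41. Of 28 chaperone genes HSP10 rose by 1.85 ± 0.37, beside SSB1 and SSB2. GCN4, the activator of amino acid biosynthesis, rose by 1.30 ± 0.28, while the 63 biosynthesis genes had that 1 call (1.59%) and a median of 0.06. GDH1, which fixes ammonium into glutamate, rose by 0.69 ± 0.15, and PEP4, a vacuolar protease and the 1 call (2.50%) of 40 autophagy genes, by 1.20 ± 0.28. For all these genes the 4 libraries separated by genotype, as in every called gene.

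The 17 genes that fell came from several functions and ran from -0.55 to -1.68 on the log2 scale. DAL4, the allantoin permease and the lowest, was at 19.7 and 16.0 CPM in the wild type and 4.39 and 6.47 in ysf3Δi. Both ysf3Δi strains were below both wild-type strains, and the fall was -1.68 ± 0.32 (adjusted p of 0.0373), or -1.54 by DESeq2 without wild-type strain 1 (adjusted p of 0.0226), where edgeR did not call it (adjusted p of 0.402). It was the only lower gene that DESeq2 called without that library. TRX3 was at 120 and 80.5 CPM in the wild type and 53.2 and 50.9 in ysf3Δi, and fell by 0.94 ± 0.21, or by 0.63 without wild-type strain 1. RUB1, a ubiquitin-like modifier with an intron, fell by 0.89 ± 0.18, and SEM1, a small subunit of the proteasome lid, by 0.88 ± 0.20. NHP6B, a chromatin protein that bends DNA, was at 223 and 196 CPM against 129 and 108 and fell by 0.81 ± 0.16, and it overlaps YBR090C on the same strand. POP4, a protein of RNase P and RNase MRP, fell by 0.81 ± 0.15, while the RNAs of both enzymes rose. DYN2, the dynein light chain gene, fell by 0.76 ± 0.17 and ARO80, an activator of aromatic amino acid breakdown, by 0.73 ± 0.16. TMH11 fell by 0.88 ± 0.20, RGI2 by 0.82 ± 0.19 and NIT1 by 0.74 ± 0.16.

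**Figure D5:**
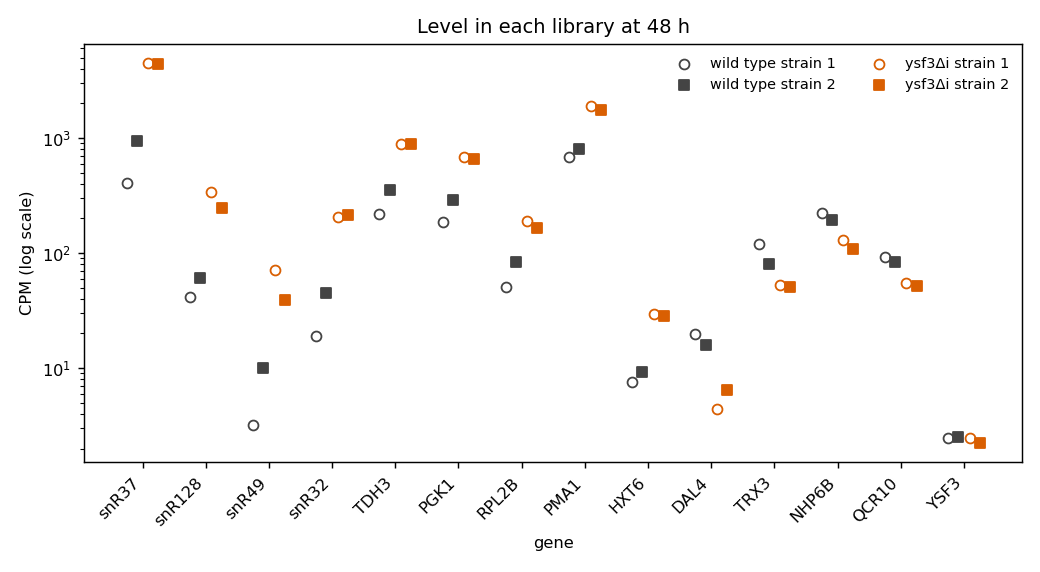
CPM of 14 genes in each library at 48 h on a log axis, with open circles for strain 1 and filled squares for strain 2, grey for the wild type and orange for ysf3Δi. From snR37 to HXT6 both ysf3Δi strains lie above the wild type, from DAL4 to QCR10 they lie below, and for YSF3 the groups overlap.

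Lists of stationary phase, trehalose and glycogen, and glyoxylate cycle genes had no call by edgeR. Ribosomal protein genes, taken as markers of log phase, are given above, and 16 of 135 rose (11.9%, beside 2.49% of all genes). CLB2, another such marker, is in the list of cell cycle and replication genes. Of the 33 in that list 0 were called by edgeR, with a median of -0.02, and DESeq2 called 2 higher and 1 lower. Of 22 stationary phase genes 0 were called by edgeR, with a median of 0.03. At an unadjusted p under 0.05, 4 were higher and 4 lower, beside 13.8% and 6.59% of all genes. DESeq2 called 1 higher and 2 lower. SIP18, a hydrophilin linked to survival of drying, was at 685 and 564 CPM in the wild type and 304 and 417 in ysf3Δi (-0.79 ± 0.21, adjusted p of 0.0646). The authors' deposited table lists SIP18 at -0.745 with an adjusted p of 0.000305. SPG4, needed to survive stationary phase at high temperature, was at -0.53 ± 0.20 and YGP1, a secreted glycoprotein made in starvation, at 0.68 ± 0.20. The 21 genes of trehalose and glycogen had a median of 0.09 with 0 called by either tool (0 higher and 1 lower at an unadjusted p under 0.05). The 21 genes of the glyoxylate cycle and gluconeogenesis had a median of 0.34 with 0 called by edgeR and 5 higher by DESeq2. At an unadjusted p under 0.05 in edgeR 9 were higher, beside 13.8% of all genes. FBP1, fructose-1,6-bisphosphatase, was at 21.0 and 26.6 CPM against 37.8 and 42.5, which did not pass (adjusted p of 0.0993). In these bulk samples fewer cells in a given state and less RNA per cell cannot be told apart.

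Genes with an annotated intron, other than those with ribosomal protein symbols (RPL, RPS or RPP), rose about as often as all genes. The list still holds the ribosomal protein gene ASC1 and genes of mitochondrial DNA such as COX1 and COB, so it is not limited to nuclear introns. The 180 tested had a median of 0.06. At an unadjusted p under 0.05, 36 were higher and 17 lower, beside 13.8% and 6.59% of all genes. At an adjusted p under 0.05, 5 rose (2.78%, beside 2.49% of all genes) and 3 fell (1.67%, beside 0.28%). Those that rose were ASC1, ACT1 (actin, 1.08 ± 0.19), IMD4 (a dehydrogenase of guanine nucleotide synthesis), SAR1 and CMC4, and those that fell were RUB1, DYN2 and QCR10. All of these are counts of whole genes, and splicing itself was not measured.

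The coding genes that rose differed from all coding genes in GC content and length, which the test did not use. These 119 had a median GC content of 42.7%, beside 39.6% in all 5650 coding genes tested, and a median length of 1008 nt beside 1254 nt. The 16 that fell had a median GC content of 39.6%, as in all coding genes, and a median length of 448 nt. When the coding genes were cut into 5 bins of 1130 by GC content, the bins held 4, 8, 11, 35 and 61 genes that rose, from the lowest to the highest GC. The median log2 fold change was -0.06 in the lowest bin and 0.16 in the highest. Between the 2 wild-type strains the median log2 ratio of strain 1 to strain 2 was 0.00 in the lowest bin and -0.12 in the highest, so that strain 1 was lower in genes of high GC content. Between ysf3Δi strains 1 and 2 the same ratio was -0.02 and 0.03. Without wild-type strain 1 the medians of the ysf3Δi comparison were -0.06 and 0.12. The part of GC content in the result was not tested. An intron was annotated in 13 (10.9%) of the coding genes that rose and 3 (18.8%) of the 16 that fell, beside 4.76% of all coding genes tested. Of the 13 that rose, 8 are ribosomal protein genes. By chromosome, the share of tested genes called ran from 2.05% on XIV, which holds YSF3, to 5.04% on VI among the nuclear chromosomes.

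Genes beside YSF3 were looked at because the edit lies there, and were chosen by position. THO2 was at -0.03 ± 0.13, NAM9 at -0.06 ± 0.12, AAH1 at 0.45 ± 0.23 and FPR1 at 1.09 ± 0.38 (adjusted p of 0.152). SRV2, a regulator of actin and adenylate cyclase, was at 60.5 and 78.1 CPM in the wild type and 117 and 124 in ysf3Δi. The groups did not overlap, and the log2 fold change of 0.79 ± 0.24 did not pass by edgeR (adjusted p of 0.104). DESeq2 called SRV2 (0.78, adjusted p of 0.0280) and YNL134C (0.59, adjusted p of 0.0366), but neither without wild-type strain 1 (adjusted p of 0.608 and 0.817). In the authors' deposited table SRV2 is listed at 0.71 with an adjusted p of 0.00044. None of the 9 other genes tested within 9000 nt on either side of YSF3 passed by edgeR.

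The same strains in log phase were compared to ask whether the effect depends on growth phase. In log phase 1652 of the 6068 genes (27.2%) passed, 830 higher and 822 lower. Of the 168 genes called at 48 h 157 (93.5%) were called the same way in log phase, which is 9.50% of the log phase calls. These are different libraries of the same 4 strains, wild-type strain 1 among them. Of the genes that rose at 48 h 8 were not called higher in log phase, and of those that fell 3 were not called lower. Examples, chosen after their values were seen, were HXT6, at 1.76 at 48 h and -0.17 in log phase, and U4 (snR14), at 2.61 and 0.93. Among the genes that fell, DAL4 was at -1.68 and -0.62 and ARO80 at -0.73 and -0.26. The test of the difference between phases called 0 genes by edgeR and 0 by DESeq2, with 284 at an unadjusted p under 0.05 in edgeR. For HXT6 that difference was 1.94. By list, H/ACA RNAs had medians of 1.95 at 48 h and 2.17 in log phase, glycolysis 1.04 and 1.40, ribosomal proteins 0.49 and 0.75, and ribosome biogenesis -0.18 and -0.55, where 75 of 137 fell in log phase. In the test of the difference 44 of the 137 ribosome biogenesis genes (32.1%) had an unadjusted p under 0.05, beside 4.68% of all genes, with a median difference of 0.39.

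Cells without the MMS2 intron at 48 h gave a comparison with another intron deletion that needs no wild-type library. The direct test of ysf3Δi against it called 0 genes by edgeR, with 374 at an unadjusted p under 0.05, and 11 by DESeq2 (6 higher and 5 lower). Against the wild type, which the comparisons share, the MMS2 deletion had 645 genes called (10.6%), 518 higher (8.54%) and 127 lower (2.09%). Side by side, for a few genes chosen after their values were seen and with the same wild-type libraries in both, snR37 was at 2.72 in ysf3Δi and 2.67 in the MMS2 deletion, snR128 at 2.50 and 2.61, TDH3 at 1.62 and 1.49, RPL2B at 1.38 and 1.44, and DAL4 at -1.68 and -1.80. QCR10 was at -0.71 in ysf3Δi and 0.13 in the MMS2 deletion, and HXT1 at 1.45 and 0.53, and neither passed the direct test. Lists with larger differences, chosen for that, included nuclear respiratory genes and the glyoxylate cycle with gluconeogenesis. The 37 nuclear respiratory genes had medians of 0.38 in ysf3Δi and 0.89 in the MMS2 deletion. The 21 genes of the glyoxylate cycle and gluconeogenesis had medians of 0.34 and 0.86. In the direct test by edgeR 18 of the 37 and 10 of the 21 had an unadjusted p under 0.05, beside 6.16% of all genes, and 0 passed. Trehalose and glycogen genes went the other way, with medians of 0.09 in ysf3Δi and -0.27 in the MMS2 deletion. Of these 21 genes 8 (38.1%) had an unadjusted p under 0.05 in that test, as did 6 of 22 stationary phase genes (27.3%), and none passed. Small nucleolar RNAs took 9.41 and 11.6% of counts in the MMS2 deletion. Its strains, like ysf3Δi, had summed a-cell levels near those of wild-type strain 2, at 257 and 241 CPM.

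The authors' deposited table of this comparison lists 224 genes at an adjusted p under 0.001, 204 higher and 20 lower in ysf3Δi. Of these, 127 (56.7%) were among the 168 called here at an adjusted p under 0.05, which is 75.6% of them, and 0 had the opposite sign. That table is of the same comparison in this series, so matching signs are no independent check. In the authors' deposited table snR37 is listed at 1.43, TDH3 at 1.45 and DAL4 at -1.33 on the log2 scale. By edgeR here they were at 2.72, 1.62 and -1.68. The version of DESeq2 behind the deposited values is not given, and whether the fold changes were estimated alike is not known.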

How the data were processed

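The deposited read counts per gene were the input to every test. Per the submitters' processing notes, Bowtie2, HTSeq, DESeq2 and sacCer3 were used, with no versions; settings for strand and for reads of several genes are not given in the sources used here. The authors' deposited table of this comparison holds log2 fold changes and adjusted p-values per the file headers, and served only as a comparison. Files of FPKM and of other contrasts were not used.

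Groups came from the labels. Of 7126 genes 6068 were kept by filterByExpr, and 562 had no count. Library sizes were scaled with TMM, and groups were compared by the quasi-likelihood test of edgeR 4.0.16 (R 4.3.3) over all 12 libraries (6 groups, 6 residual degrees of freedom, common dispersion 0.0279), with Benjamini-Hochberg adjustment over all genes. An adjusted p comes from that fit unless DESeq2 1.42.0 is named. Members and gene lists were chosen with earlier results of these data known. Ribosomal protein genes were taken by symbol, leaving out RPP1, a protein of RNase P and RNase MRP. Named genes are YSF3, MMS2, SF3b subunits, up to 12 highest and 12 lowest called genes (symbol, at least 10 CPM, groups not overlapping), up to 4 members per list by adjusted p, mating genes, and up to 6 per direction in the other 2 tests (none passed). Genes outside this rule are said to be so. Of the identifiers 6162 matched RefSeq R64 (sacCer3), and 388 genes had a near-identical copy (95% identity over 50% of the length, blastn 2.17.0).

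Strain numbers name strains and do not pair genotypes: deviations of same-numbered strains had r = 0.0378 between the wild type and ysf3Δi at 48 h. Alternatives were other scaling, filters, thresholds, tools and libraries. Precision follows depth, which was lowest in wild-type strain 1 (4871513 counts).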

Additional observations from a re-analysis of the deposited data

How the results depend on the processing

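The count of 168 called genes was 175 with DESeq2 size factors, 130 with library totals and 188 without the filter. It was 452 (370 higher, 82 lower) with the Wald test of DESeq2, 547 (440 higher, 107 lower) with only the 4 libraries compared and 74 (68 higher, 6 lower) without noncoding RNA genes, where 28 called RNAs were not tested and 66 other genes lost their call. It was 0 at an adjusted p under 0.01 and 0 in the test against a fold of 1.5. Leaving out 1 library at a time gave 0 to 219 calls: 0 without wild-type strain 1, ysf3Δi strain 1 or ysf3Δi strain 2, and 219 without wild-type strain 2; each leaves 1 library in a group, assumed to vary like the others. Chosen after seeing the data, leaving out both libraries of wild-type strain 1 gave 0, and DESeq2 without that strain at 48 h gave 80. Of 83 named genes called, 83 were also called by DESeq2, 70 with library totals and 47 by DESeq2 without wild-type strain 1.

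With strain number as a replicate block the count was 0 (1130 at an unadjusted p under 0.05). Same-numbered strains of the genotypes share only a number. For the difference between phases, where each strain gave both libraries, the block gave 0, as did crossed numbers. Correlations of a strain's deviations between phases were -0.164 in the wild type and 0.0374 in ysf3Δi.

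The difference between phases had 0 to 3 calls with 1 library left out (3 without log phase wild-type strain 2), and ysf3Δi against the MMS2 deletion 0, or 11 with DESeq2. YSF3 stayed between -0.20 and -0.01 in every setting. Without wild-type strain 1 STE6 was at -0.17 and MF(ALPHA)1 at 0.89 (0.93 with DESeq2, 0.90 without both its libraries), while without wild-type strain 2 they were at 1.17 and -3.88. RDS3 was at 0.0342 without ysf3Δi strain 2 and -0.20 without ysf3Δi strain 1. None of these passed. The cause was not tested. Genes of few counts, such as ATP8, are limited by depth.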
